A study of Mus musculus with 9 samples.

Results

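All 9 deposited libraries enter the comparison described here, 6 from mice with a nerve injury and 3 from sham-operated mice. It asks which genes moved the same way in injured mice whether or not they had received the drug. RNA of the prelimbic cortex, a medial prefrontal area, was sequenced from 3 groups of 3 mice: a sham operation with saline (sham mice), spared nerve injury with saline (SNI-saline mice), and spared nerve injury with 10 mg/kg of R-HNK (R-HNK mice). R-HNK is (2R,6R)-hydroxynorketamine, a breakdown product of ketamine. Tissue was taken on day 14 after surgery in all groups. The labels give no strain, sex, age, or time and number of doses. Each library is labelled as a separate mouse, so p-values measure the spread between mice, 3 per group.

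In spared nerve injury part of the sciatic nerve is cut while a sensory branch is kept whole, which leaves rodents with lasting neuropathic pain. The prelimbic cortex helps to control pain and its emotional weight, and its excitatory neurons are studied in chronic pain for changes in firing. When neurons fire, calcium entry and the ERK kinase pathway switch on immediate early genes within minutes, many of which encode transcription factors (Fos, Egr and Nr4a families), and also the feedback inhibitors that shut the same pathway off. Their mRNAs are short-lived, so their level follows the recent activity of the tissue.

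A gene was counted when the average of both injured groups differed from sham at an adjusted p under 0.05 (edgeR's quasi-likelihood test, Benjamini-Hochberg adjustment over all genes tested) and when both injured groups lay on the same side of sham. Of 21765 genes tested, 37 met the rule (0.17%), 20 higher (0.0919%) and 17 lower (0.0781%) in injured mice. An unadjusted p under 0.05 was reached by 2521 genes, 1087 higher and 1434 lower. The same side alone was met by 72.9% of all genes, and by every one of the 37 that passed the adjusted p. The median log2 fold change of all genes was -0.01. Of the higher genes 12 were immediate early genes and 1, Dusp6, an inhibitor of the ERK pathway, and the lower genes included several transcription factors of immature and inhibitory neurons (Pbx3, Sp9, Dlx1, Dlx2, Pax6), the secreted factor Bmp6 and the lipid carrier Apod.

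The change in R-HNK mice was the smaller one in nearly all of these genes. All 37 passed when SNI-saline mice alone were set against sham (233 genes passed, 1.07%), and 1, the pseudogene Gm6344, passed when R-HNK mice alone were set against the same sham mice (1 gene passed, 0.00459%). The other 36 had adjusted p of 0.930 or more there, while 29 of the 37 had an unadjusted p under 0.05 against 3.53% of all genes, values that share sham and R-HNK libraries with the rule. In 36 of 37 the mean of the R-HNK mice lay between those of the sham and the SNI-saline mice. The log2 change in R-HNK mice was a median of 35.1% of that in SNI-saline mice (35.7% in the higher and 33.6% in the lower genes), and ran from 14.7% to 122%, the latter in Gm6344.

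The count also depended on giving each injured group a mean of its own. All 6 injured mice were also fitted as 1 group, so that the difference between saline and R-HNK mice counts as spread. There edgeR passed 0 genes (smallest adjusted p 0.130, with 2060 genes at an unadjusted p under 0.05). Limma-voom, run without quality weights for the libraries, passed 0 (smallest adjusted p 0.310, with 2094 unadjusted). DESeq2 passed 87, of which 14 were among the 37 (2263 unadjusted). With a mean for each group limma-voom used such weights, so its counts from the 2 models differ in both respects. The genes ranked highest by edgeR in that model were Gm6344, Rprm, Ptgs2 and Prss56, in this order. Of the 37 genes, 28 showed no overlap between the 6 injured and the 3 sham libraries, 17 above and 11 below. Over all genes tested 933 (4.29%) showed none, 2.12% above and 2.17% below. The choice of the 37 on the same libraries largely fixes their count. The heat map of single libraries shows the stronger colour in the SNI-saline columns.

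**Figure D1:**
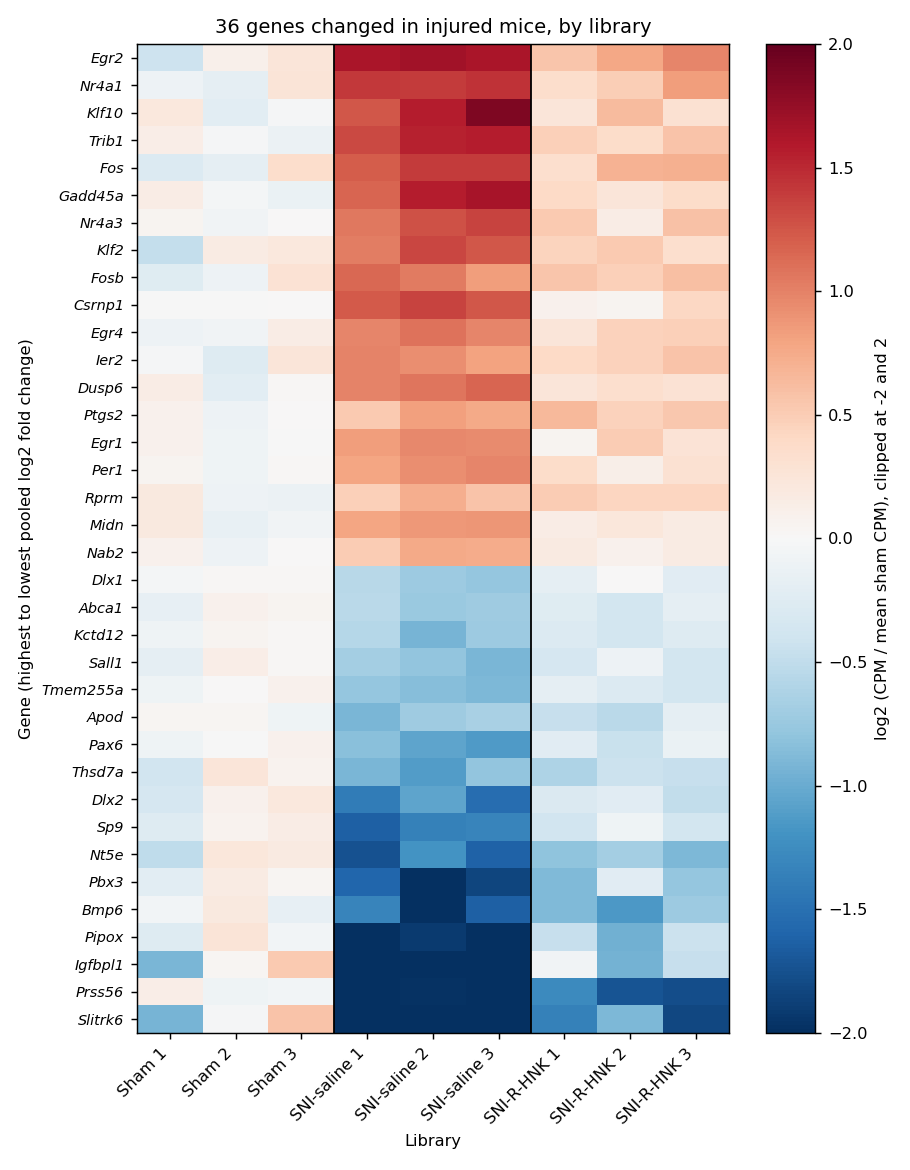
Level of the 36 protein-coding genes that passed, 1 row per gene and 1 column per library, as log2 of the CPM over the mean CPM of the 3 sham libraries (colour, clipped at -2 and 2), ordered by the pooled log2 fold change. Egr2 is at the top and Slitrk6 at the bottom, and the 3 R-HNK columns are paler than the 3 SNI-saline columns in most rows.

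The libraries held 53624337 to 73586375 counts. Markers of striatal medium spiny neurons, which lie outside the cortex, stood high in 4 libraries: the 23 genes of that list summed to 1089 to 3004 CPM (read counts scaled to a common library size) in sham, 1021 to 1087 in SNI-saline and 1067 to 2106 in R-HNK mice, with none at 0 in all libraries. Sham 2 and 3 and R-HNK 1 and 3 had positive scores on this list (1.73, 1.74, 0.68 and 1.13 on the log2 scale around the mean of all libraries), and the first principal component (22.8% of the variance) split off the same 4. The 37 genes had the sign of the pooled change both within these 4 libraries (R-HNK 1 and 3 against sham 2 and 3) and within the other 5 (SNI-saline 1 to 3 and R-HNK 2 against 1 sham mouse), a count that the choice of the genes on the same 9 libraries largely fixes. In R-HNK 2 against sham 1 alone, which both had negative scores on the list, 32 of the 37 had it. These 2 libraries also took part in the choice of the genes, and the share over all genes was not taken. Some of the 32 differences were small, such as Pbx3 at -0.011 and Nab2 at 0.011 on the log2 scale. With the striatal score as a covariate 22 of the 37 still passed, and without the 4 libraries 10 did, in a fit that holds 1 sham and 1 R-HNK mouse. Markers of excitatory neurons summed to 7616 to 9733 CPM in sham, 9673 to 10215 CPM in SNI-saline and 8662 to 9393 CPM in R-HNK mice. In bulk tissue, fewer cells of a type and less RNA per cell cannot be told apart. The part of these markers in the 37 changes was not tested beyond these values.

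Leaving out 1 library changed which genes passed. Of the 37, 9 passed in each of the 9 fits that left out 1 library: Trib1, Egr4, Gm6344, Dusp6, Egr2, Nr4a3, Per1, Pbx3 and Nr4a1. Without sham 1 all 37 passed, among 518 genes, without sham 2, 9 of them passed, and without sham 3, 14 of them. Without SNI-saline 1, 2 and 3 there remained 27, 14 and 22, and without R-HNK 1, 2 and 3 there remained 21, 33 and 22. All 37 kept their sign in every one of these fits, which the choice of the genes on the same libraries largely fixes. The values at the threshold were close together: Klf2, Dlx1 and Nab2 were just inside (adjusted p 0.0437, 0.0437 and 0.0458), and the phosphatase receptor Ptpro, the AMPA receptor auxiliary subunit Cacng5 and the ERK pathway inhibitor Spry4 were just outside (0.0503, 0.0503 and 0.0515).

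Immediate early genes made up 12 of the 20 higher genes. Of 39 tested members of the list, 12 were higher (30.8%), none was lower and 38 had a positive log2 fold change, with a median of 0.59 against -0.01 for all genes. The list median was 0.80 in SNI-saline and 0.30 in R-HNK mice. The 27 others did not pass. The count of 12 was 18 without sham 1, 6 without sham 2, 6 without SNI-saline 2, 22 with DESeq2 and 18 with limma-voom with quality weights. Over all genes these fits passed 518, 13, 15, 357 and 269, in this order. With all injured mice as 1 group the count of immediate early genes was 0 by edgeR or by limma-voom without weights. The list was drawn up with results of these libraries known.

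Among the transcription factors that open the programme, Egr2, a zinc finger factor, measured 5.62, 8.08 and 8.86 CPM in sham mice, 23.3, 24.01 and 23.4 CPM in SNI-saline mice and 11.1, 12.9 and 14.8 CPM in R-HNK mice. The groups did not overlap, and the R-HNK mice stood between the other two. Its pooled log2 fold change of 1.21 ± 0.14 (SE, adjusted p = 0.00505) was the highest of any protein-coding gene among the 37, made up of 1.65 in SNI-saline and 0.78 in R-HNK mice. Egr4, of the same family, measured 56.6, 57.4 and 67.4 CPM in sham mice, then 118.8, 127.8 and 119.3 CPM under saline and 71.8, 82.9 and 83.8 CPM under R-HNK. All 6 injured mice were above the highest sham mouse, with a pooled log2 fold change of 0.70 ± 0.08 (adjusted p = 0.00338). Egr1 averaged 359 ± 22.5 CPM in sham, 679 ± 31.0 in SNI-saline and 439 ± 68.8 in R-HNK mice (SD, n = 3). R-HNK 1, at 372 CPM, lay below sham 1 at 383 CPM, so Egr1 overlapped between injured and sham mice, and its call (0.60 ± 0.09, adjusted p = 0.0155) was lost without sham 2, sham 3 or SNI-saline 2, with an adjusted p of up to 0.129. Nab2, the corepressor that Egr factors switch on and that in turn curbs them, went from 37.3 ± 2.27 in sham to 59.7 ± 5.51 in SNI-saline and 41.4 ± 1.39 CPM in R-HNK mice. The call of Nab2 was lost without sham 2 or 3, SNI-saline 2 or 3, or R-HNK 1 or 3 (adjusted p of up to 0.285). Of the 6 Egr and Nab genes tested, 4 passed, all higher, and 2 passed without sham 2, without sham 3 or without SNI-saline 2, and 0 by edgeR with all injured mice as 1 group.

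The orphan nuclear receptor Nr4a1, whose gene answers to neuronal calcium, measured 81.7, 77.6 and 104.9 CPM in sham, 234.2, 232.6 and 239.6 CPM in SNI-saline and 112.5, 123.8 and 157.4 CPM in R-HNK mice. Its lowest injured value exceeded its highest sham value, and the R-HNK mice spread widest. The pooled log2 fold change was 1.00 ± 0.12 (adjusted p = 0.00909). Nr4a3, its paralog, rose by 0.83 ± 0.10 on the log2 scale (adjusted p = 0.00505), from 29.9 ± 1.28 CPM in sham to 70.1 ± 7.19 under saline and 40.3 ± 6.23 under R-HNK.

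Fos, a subunit of the AP-1 factor and the usual marker of neurons that fired, measured 27.7, 29.6 and 42.8 CPM in sham, 77.6, 87.8 and 87.7 CPM in SNI-saline and 42.0, 53.9 and 54.5 CPM in R-HNK mice. R-HNK 1 fell just below sham 3, the only overlap in this gene. Its pooled log2 fold change was 0.96 ± 0.14 (adjusted p = 0.0377), and the call was lost without sham 2, any SNI-saline mouse, R-HNK 2 or R-HNK 3, with an adjusted p of up to 0.209. Fosb, of the same family, did not overlap: 19.1, 21.2 and 27.8 CPM in sham, 50.3, 46.7 and 40.7 CPM under saline, and 33.2, 31.7 and 34.6 CPM under R-HNK. Its log2 fold change of 0.78 ± 0.11 (adjusted p = 0.0149) was lost without sham 2 or SNI-saline 2 (adjusted p of up to 0.118).

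Trib1, a pseudokinase that brings proteins to degradation, had the smallest p of all genes. It measured 21.8, 19.6 and 18.3 CPM in sham mice, 49.5, 57.5 and 58.9 CPM in SNI-saline mice and 27.7, 25.5 and 29.6 CPM in R-HNK mice. The 3 groups did not overlap each other. The pooled log2 fold change was 0.97 ± 0.09 (adjusted p = 0.00113). Per1, a clock gene that also answers to neuronal activity and to glucocorticoids, rose by 0.59 ± 0.07 (adjusted p = 0.00548), from 77.7 ± 4.15 CPM to 145 ± 9.48 under saline and 93.6 ± 8.19 under R-HNK. It was the only one of 19 clock genes and the only one of 22 glucocorticoid-responsive genes to pass (5.26% and 4.55%). Klf10, Ier2 and Csrnp1 completed the list, with log2 fold changes of 0.99, 0.69 and 0.74. Csrnp1 was lost without sham 2, sham 3 or SNI-saline 2 (adjusted p of up to 0.114), Klf10 also without R-HNK 1 or 3 (up to 0.202), and Ier2 without sham 2, SNI-saline 1 or 2, or R-HNK 1 or 3 (up to 0.147). Csrnp1 shares 13496 bases on the same strand with the microglial gene Cx3cr1 in the annotation, and its reads may be split between the genes.

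**Figure D2:**
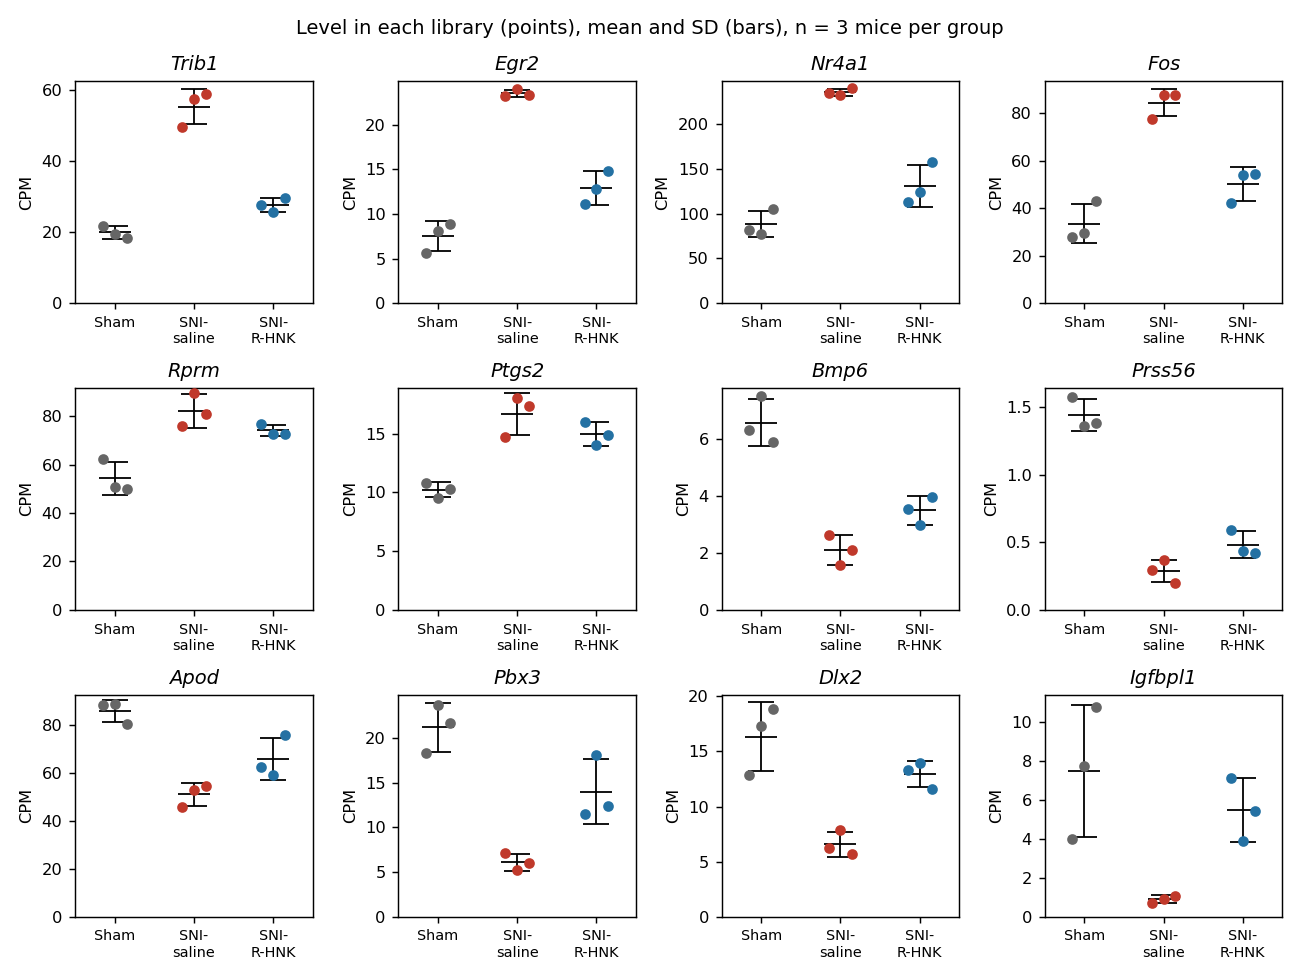
CPM of 12 of the genes in each library (points), with the mean and SD of each group of 3 mice (bars); every axis starts at 0. Rprm, Ptgs2, Bmp6 and Prss56 have R-HNK points near the SNI-saline points, while in Trib1, Dlx2 and Igfbpl1 the R-HNK points lie near the sham points.

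Dusp6, the phosphatase that inactivates ERK and is itself switched on by ERK, was the only one of 17 tested feedback genes of the pathway to pass (5.88%). It measured 59.5, 46.3 and 54.5 CPM in sham, 106.6, 112.7 and 119.7 CPM in SNI-saline and 63.3, 67.3 and 65.5 CPM in R-HNK mice. The injured mice were all higher than the sham mice, the R-HNK mice by less than the SNI-saline mice, and the log2 fold change was 0.69 ± 0.08 (adjusted p = 0.00454). Of the 17 genes, 9 had an unadjusted p under 0.05, all higher. Spry4, a Sprouty inhibitor of receptor kinase signalling, measured 12.9, 11.9 and 12.2 CPM in sham, 22.8, 21.2 and 24.5 under saline and 12.8, 12.5 and 12.9 under R-HNK, so its R-HNK values lay within the sham range. Dusp1, another phosphatase of the family, gave a log2 fold change of 0.78 ± 0.15 that did not pass (adjusted p = 0.0943).

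Of the higher genes outside these lists, Gadd45a, a growth arrest and DNA repair gene, went from 6.05 ± 0.614 CPM in sham to 16.9 ± 2.86 under saline and 7.64 ± 0.422 under R-HNK, a log2 fold change of 0.91 ± 0.13. Midn, which takes short-lived nuclear proteins to the proteasome, went from 60.6 ± 7.82 to 109 ± 3.73 and 68.6 ± 1.91 CPM, and its R-HNK mice overlapped with sham. Klf2, a Krüppel-like factor, gave 0.82 ± 0.14. These 3 calls were lost without sham 2, sham 3 or SNI-saline 2 (Klf2 in all fits but the one without sham 1), with an adjusted p of up to 0.114 for Gadd45a, 0.118 for Midn and 0.135 for Klf2.

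Rprm and Ptgs2 were the higher genes whose 2 injured groups were most alike. Rprm encodes Reprimo, a cell cycle arrest protein that in cortex marks deep-layer neurons. It measured 62.1, 50.8 and 49.9 CPM in sham, 75.8, 89.6 and 80.7 CPM in SNI-saline and 76.8, 72.7 and 72.7 CPM in R-HNK mice. All injured mice were above all sham mice, and the injured groups overlapped each other. The pooled log2 fold change was 0.52 ± 0.08 (adjusted p = 0.0236), with 0.60 under saline and 0.45 under R-HNK. Ptgs2 encodes cyclooxygenase-2, which makes prostaglandins and is present in excitatory neurons of the cortex without injury. Its level was 10.8, 9.52 and 10.3 CPM in sham, 14.7, 18.03 and 17.3 CPM under saline and 16.0, 14.0 and 14.9 CPM under R-HNK, again with every injured mouse above every sham mouse and the injured groups overlapping each other. Its log2 fold change was 0.63 ± 0.10 (adjusted p = 0.0273), 0.71 under saline and 0.55 under R-HNK. Both calls depended on single libraries: Rprm was lost without sham 2, sham 3, SNI-saline 2, SNI-saline 3 or R-HNK 1 (adjusted p of up to 0.175), Ptgs2 without these or R-HNK 3 (up to 0.184), and with the striatal score as a covariate their adjusted p were 0.0526 and 0.0567. Within the 4 libraries high in striatal markers Rprm differed by 0.57 and Ptgs2 by 0.64 on the log2 scale, and within the other 5 by 0.36 and 0.57. Rprm was the only one of 16 deep layer markers to pass (6.25%). Fezf2, the factor that specifies subcortical projection neurons of the deep layers, had every injured mouse above every sham mouse (44.3 to 73.85 against 30.7 to 44.0 CPM) and did not pass (0.68 ± 0.13, adjusted p = 0.0647). The summed deep layer list ran from 1099 to 1214 CPM in sham, 1189 to 1318 in SNI-saline and 1160 to 1240 in R-HNK mice, and its part in the Rprm value was not tested.

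The promoters of 4 of these genes are shown because the genes rose together and because Rprm, alike in both injured groups, is set beside 3 immediate early genes. RefSeq holds the stretch from 250 bases before to 50 bases after the start for 30 of the 37 genes (GRCm38.p6). Capitals mark the core of the cAMP response element, TGACG, through which CREB acts, and the EGR motif GCGNGGGCG, each on either strand. The windows are Fos at chr12:85473640-85473939 (+), Nr4a1 at chr15:101266596-101266895 (+), Egr4 at chr6:85513540-85513839 (-) and Rprm at chr2:54085503-54085802 (-), all written 5′ to 3′ in the direction of the gene.
Fos: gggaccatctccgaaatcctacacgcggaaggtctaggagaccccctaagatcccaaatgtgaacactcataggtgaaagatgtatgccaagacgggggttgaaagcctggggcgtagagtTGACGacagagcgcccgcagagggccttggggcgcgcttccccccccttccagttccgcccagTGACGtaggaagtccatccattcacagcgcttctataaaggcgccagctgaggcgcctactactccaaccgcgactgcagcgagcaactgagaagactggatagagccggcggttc
Nr4a1: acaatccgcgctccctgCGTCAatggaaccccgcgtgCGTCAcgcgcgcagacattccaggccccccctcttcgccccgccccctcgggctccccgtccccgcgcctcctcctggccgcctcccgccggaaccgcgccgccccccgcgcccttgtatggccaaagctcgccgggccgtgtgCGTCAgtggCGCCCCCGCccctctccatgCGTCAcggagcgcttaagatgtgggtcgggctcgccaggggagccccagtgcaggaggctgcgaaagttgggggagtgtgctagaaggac
Egr4: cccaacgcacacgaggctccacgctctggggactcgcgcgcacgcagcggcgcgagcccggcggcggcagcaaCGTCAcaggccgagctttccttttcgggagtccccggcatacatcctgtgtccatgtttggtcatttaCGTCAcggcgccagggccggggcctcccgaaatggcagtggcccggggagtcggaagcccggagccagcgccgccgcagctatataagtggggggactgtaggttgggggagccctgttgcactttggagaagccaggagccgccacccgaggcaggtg
Rprm: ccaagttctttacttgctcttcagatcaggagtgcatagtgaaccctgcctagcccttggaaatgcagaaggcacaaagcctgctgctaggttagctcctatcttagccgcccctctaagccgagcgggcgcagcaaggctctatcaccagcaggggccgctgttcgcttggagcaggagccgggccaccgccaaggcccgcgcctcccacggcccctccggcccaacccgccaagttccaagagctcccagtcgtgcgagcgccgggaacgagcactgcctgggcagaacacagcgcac

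Fos holds the TGACG core 2 times, Nr4a1 4 times with 1 EGR motif, Egr4 2 times, and Rprm holds neither motif in its 300 bases. The core was found in 11 of the 15 higher genes with a promoter and in 5 of the 15 lower genes, and 23.0% of 27025 genes hold it (20.8% of 32851 promoters). The shares of genes given here are over all genes with a promoter, whether or not they were tested in these libraries. The 11 higher genes with the core were Csrnp1, Egr2, Egr4, Fos, Fosb, Klf2, Midn, Nr4a1, Nr4a3, Per1 and Ptgs2. The full element TGACGTCA, which contains the core, was in none of the higher genes and 1 lower gene, Pax6 (2.03% of genes). The CArG box of serum response factor was in Egr2 among the higher and in none of the lower genes (1.81%), the EGR motif in 3 and 1 (6.27%), and the AP-1 motif TGANTCA in 1 and 1 (8.97%). These are matches of letters, and were not tested as binding sites. In the GENCODE annotation of the same build, the gene bodies of Egr2 (chr10:67535475-67542188), Trib1 (chr15:59648350-59657099), Dusp6 (chr10:99263231-99267489), Ptgs2 (chr1:150100031-150108227), Bmp6 (chr13:38345107-38500302), Apod (chr16:31296192-31314808) and Pbx3 (chr2:34171457-34373142) are those of protein-coding genes.

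Gm6344 had a pattern of its own. It is a processed pseudogene at chr13:55085777-55086259 (GRCm38), 483 bases that lie wholly within Uimc1, a DNA repair gene on the other strand, and the sources used here do not say whether reads were counted by strand. Its counts were 0, 1 and 0 in sham, 56, 19 and 45 in SNI-saline and 150, 142 and 72 in R-HNK mice. The ratio of the summed counts, 484 against 1, per total counts was 212, with a counting interval of 37.9 to 8390 (95%, exact) that covers counting error only. It was the only gene of the 37 with the larger change under R-HNK, and the only one that passed there alone (adjusted p = 0.00447). At a mean of 0.663 and 1.78 CPM in the injured groups it stayed at a low level, and limma-voom with quality weights did not pass it.

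Of the lower genes, those for secreted proteins, enzymes and membrane proteins come before the transcription factors. Bmp6, a secreted bone morphogenetic protein, measured 6.32, 7.503 and 5.89 CPM in sham, 2.64, 1.57 and 2.11 CPM in SNI-saline and 3.55, 2.97 and 3.97 CPM in R-HNK mice. No injured mouse reached a sham mouse, and the log2 fold change was -1.28 ± 0.18 (adjusted p = 0.0149), lost without sham 2 (0.118) and in no other fit that left out 1 mouse. Prss56, a secreted serine protease, measured 1.57, 1.36 and 1.38 CPM in sham, 0.296, 0.367 and 0.202 CPM under saline and 0.594, 0.433 and 0.421 CPM under R-HNK. Both injured groups were below sham in every mouse, with a log2 fold change of -1.94 ± 0.29 (adjusted p = 0.0167), lost without sham 2 or sham 3 (up to 0.114). Nt5e, the ecto-enzyme CD73 that makes adenosine outside cells, measured 4.05, 6.77 and 6.55 CPM in sham, 1.74, 2.52 and 1.88 under saline and 3.32, 3.61 and 3.12 under R-HNK. It did not overlap either, with a log2 fold change of -1.14 ± 0.19 (adjusted p = 0.0377), but the call was lost on leaving out any library other than sham 1 or R-HNK 2 (adjusted p of up to 0.258). With the striatal score as a covariate the adjusted p were 0.0329 for Bmp6, 0.0371 for Prss56 and 0.171 for Nt5e. Without the 4 libraries high in striatal markers their log2 fold changes were -1.33, -2.15 and -0.57. That fit holds 1 sham and 1 R-HNK mouse, so these sizes do not show that a call held.

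Apod, the lipid carrier made by oligodendrocytes, measured 88.6, 88.9 and 80.8 CPM in sham, 45.9, 52.8 and 54.9 CPM in SNI-saline and 62.8, 59.5 and 76.0 CPM in R-HNK mice. All injured mice were lower, and the log2 fold change was -0.57 ± 0.08 (adjusted p = 0.0156). It was the only one of 19 myelin and oligodendrocyte genes to pass (5.26%). The summed list ran from 3877 to 7945 CPM in sham, 3824 to 5408 in SNI-saline and 4001 to 7674 in R-HNK mice, and its part in the Apod value was not tested. The adjusted p of Apod was 0.0371 with the score of striatal markers as a covariate. Its log2 fold change was -0.68 without the 4 libraries high in them, a fit with 1 sham and 1 R-HNK mouse. The call was lost without sham 2, SNI-saline 2 or R-HNK 1 (up to 0.126). Kctd12, an auxiliary subunit of GABA-B receptors, fell by 0.52 on the log2 scale (± 0.07, adjusted p = 0.0149), from 113 ± 5.54 CPM to 68.0 ± 8.60 under saline and 91.7 ± 3.48 under R-HNK, lost without sham 2 or sham 3 (up to 0.118). Abca1, the exporter of cholesterol, fell by 0.46 and Tmem255a, a membrane protein, by 0.56, and Thsd7a, a thrombospondin-domain protein, by 0.72, all without overlap. Abca1 was lost on leaving out any library other than sham 1 or SNI-saline 1 (adjusted p of up to 0.274), Thsd7a any other than sham 1 (up to 0.202), and Tmem255a without sham 2 or 3 or SNI-saline 2 or 3 (up to 0.129). With the striatal score as a covariate Abca1, Tmem255a and Thsd7a did not pass (adjusted p = 0.132, 0.0625 and 0.125). Without the 4 libraries high in striatal markers, again with 1 sham and 1 R-HNK mouse, their log2 fold changes were -0.36, -0.46 and -0.29.

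Transcription factors of developing and inhibitory neurons made up 5 of the lower genes, all in the list of immature neuron genes. Pbx3, a homeodomain partner of Meis factors, measured 18.3, 23.6 and 21.7 CPM in sham, 7.10, 5.215 and 5.97 CPM in SNI-saline and 11.5, 18.1 and 12.4 CPM in R-HNK mice. The SNI-saline mice were lowest, and R-HNK 2 came just below sham 1, with no overlap. The log2 fold change was -1.20 ± 0.15 (adjusted p = 0.00588), -1.80 under saline and -0.60 under R-HNK. Sp9, a zinc finger factor of interneurons, measured 16.0, 20.1 and 21.3 CPM in sham, 6.17, 7.46 and 7.69 CPM under saline and 14.7, 18.1 and 14.8 CPM under R-HNK. R-HNK 2 lay within the sham range, and the pooled value of -0.85 ± 0.12 (adjusted p = 0.0141) rested mainly on the SNI-saline mice (-1.43 against -0.27). Dlx2 and Dlx1, homeobox genes that set the fate of inhibitory neurons, gave -0.82 ± 0.13 and -0.40 ± 0.07, and both overlapped between R-HNK and sham mice. Pax6 fell by 0.63 ± 0.10 without overlap, to 7.66 ± 0.830 CPM under saline and 12.8 ± 1.42 under R-HNK from 15.4 ± 0.904.

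Igfbpl1, a gene of migrating neuroblasts, measured 3.98, 7.73 and 10.8 CPM in sham, 0.696, 0.916 and 1.09 CPM in SNI-saline and 7.14, 3.88 and 5.43 CPM in R-HNK mice. Only the SNI-saline mice stood apart, and the pooled value of -1.75 ± 0.28 (adjusted p = 0.0397) holds -3.05 under saline and -0.45 under R-HNK. Of 35 immature neuron genes tested, 6 were lower (17.1%), none was higher and 29 had a negative value, with a median of -0.40 (-0.66 under saline, -0.13 under R-HNK). The 6 were Pbx3, Sp9, Dlx2, Pax6, Igfbpl1 and Dlx1. The mean log2 score of the list was 0.06, 0.34 and 0.42 in sham, -0.46, -0.43 and -0.39 in SNI-saline and 0.18, 0.21 and 0.07 in R-HNK mice. Sham 2 and 3, which were also high in the striatal markers, were thus highest. The summed list overlapped across groups, at 3256 to 3438, 3149 to 3248 and 3081 to 3562 CPM. The part of this score and of the striatal markers in the 6 values was not tested beyond the following fits. Without the 4 libraries high in striatal markers none of the 35 passed and the median was -0.09, and with the score as a covariate 3 passed with a median of -0.31. Except for Pbx3, which passed in all 9 fits, the calls were lost without sham 2 or sham 3 and, save for Sp9, without injured libraries too (adjusted p of up to 0.114 for Sp9, 0.202 for Dlx2 and Igfbpl1, 0.175 for Pax6 and 0.258 for Dlx1). Dlx1 shares all 5869 of its bases with the antisense gene Dlx1as.

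Among 14 genes of olfactory-type interneurons, 2 of these, Pbx3 and Pax6, were lower (14.3%), with a list median of -1.16. The summed list ran from 578 to 675 CPM in sham, 393 to 431 in SNI-saline and 442 to 611 in R-HNK mice. Its score was highest in sham 1 (0.74), and R-HNK 2 had 0.45, though both were low in the striatal markers. This score was not used as a covariate, and its part in these values was not tested. Scgn and Sp8, which mark such cells, gave -2.41 ± 0.44 and -1.28 ± 0.25 and did not pass (adjusted p = 0.0625 and 0.0935). Pipox, an enzyme of pipecolic acid breakdown, Slitrk6, a neurite adhesion protein, and Sall1, a factor of microglia and of some progenitors, gave -1.35, -2.41 and -0.53. All 3 calls were lost without sham 2 and without sham 3, SNI-saline 1, SNI-saline 2, R-HNK 1 or R-HNK 3, with adjusted p of up to 0.258, 0.266 and 0.285, Pipox and Sall1 also without SNI-saline 3. With the striatal score as a covariate none of the 3 passed (adjusted p = 0.122, 0.197 and 0.110). Without the 4 libraries high in striatal markers, a fit with 1 sham and 1 R-HNK mouse, Pipox, Slitrk6 and Sall1 gave -1.28, -1.28 and -0.27. Sall1 was the only one of 21 microglial genes to pass (4.76%).

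**Figure D3:**
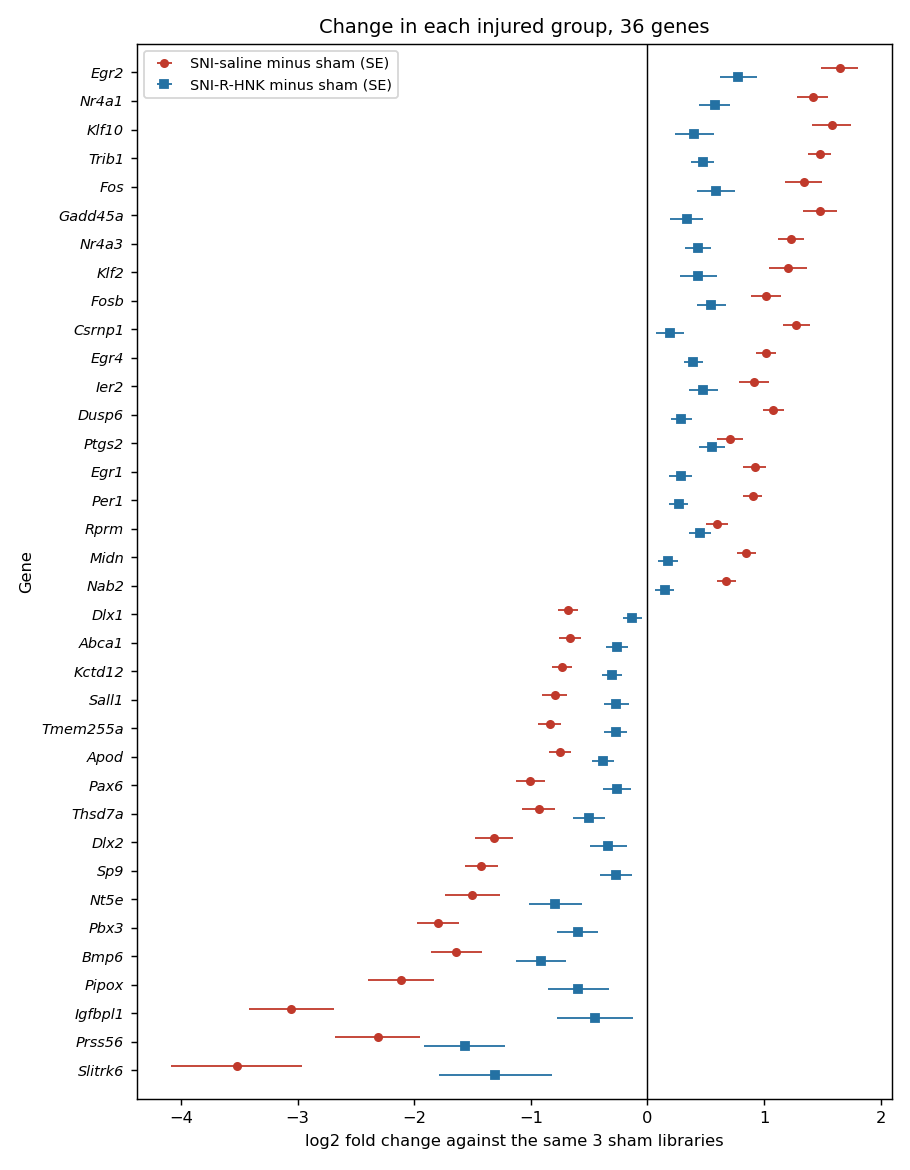
Log2 fold change of SNI-saline (circles) and R-HNK mice (squares) against the same 3 sham libraries for the 36 protein-coding genes, with the SE. Every circle lies farther from 0 than its square, and the pairs are closest in Rprm and Ptgs2.

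The difference between R-HNK and SNI-saline mice was tested for each of the 37. The 2 means compared hold no sham library, but the spread came from the fit of all 9 libraries, sham included. The test is therefore not independent of the sham mice. The difference passed in 18 (26 of all genes passed, 0.119%), 12 of the higher and 6 of the lower genes. Beside this, no SNI-saline library but 2 of the 3 R-HNK libraries were high in striatal markers. The count of genes that passed both tests was 7 without the 4 libraries high in these markers and 19 with their score as a covariate. It was 46 and 8 without sham 1 and 2, 4 without SNI-saline 2, 4 without SNI-saline 3, and 7 without R-HNK 1. The largest were Igfbpl1 (log2 difference 2.60, 95% interval 1.81 to 3.40), Pbx3 (1.20, 0.81 to 1.59), Klf10 (-1.18, -1.55 to -0.80), Sp9 (1.16, 0.85 to 1.46), Gadd45a (-1.14, -1.45 to -0.84), Csrnp1 (-1.08, -1.34 to -0.83) and Trib1 (-1.003, -1.21 to -0.79). In all 18 the R-HNK mice were closer to sham. In 3 genes the interval of the difference stayed within 1.5-fold either way: Rprm (-0.15, -0.34 to 0.05), Ptgs2 (-0.16, -0.40 to 0.08) and Apod (0.37, 0.16 to 0.58), though the interval of Apod did not include 0. In the remaining 16 the difference did not pass after adjustment over all genes, and the interval reached beyond 1.5-fold. In 15 of these the unadjusted interval still left out 0, as in Egr2 (-0.87, -1.20 to -0.53) and Fos (-0.75, -1.10 to -0.40), and in 1, Prss56 (0.75, -0.04 to 1.53), it held 0.

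**Figure D4:**
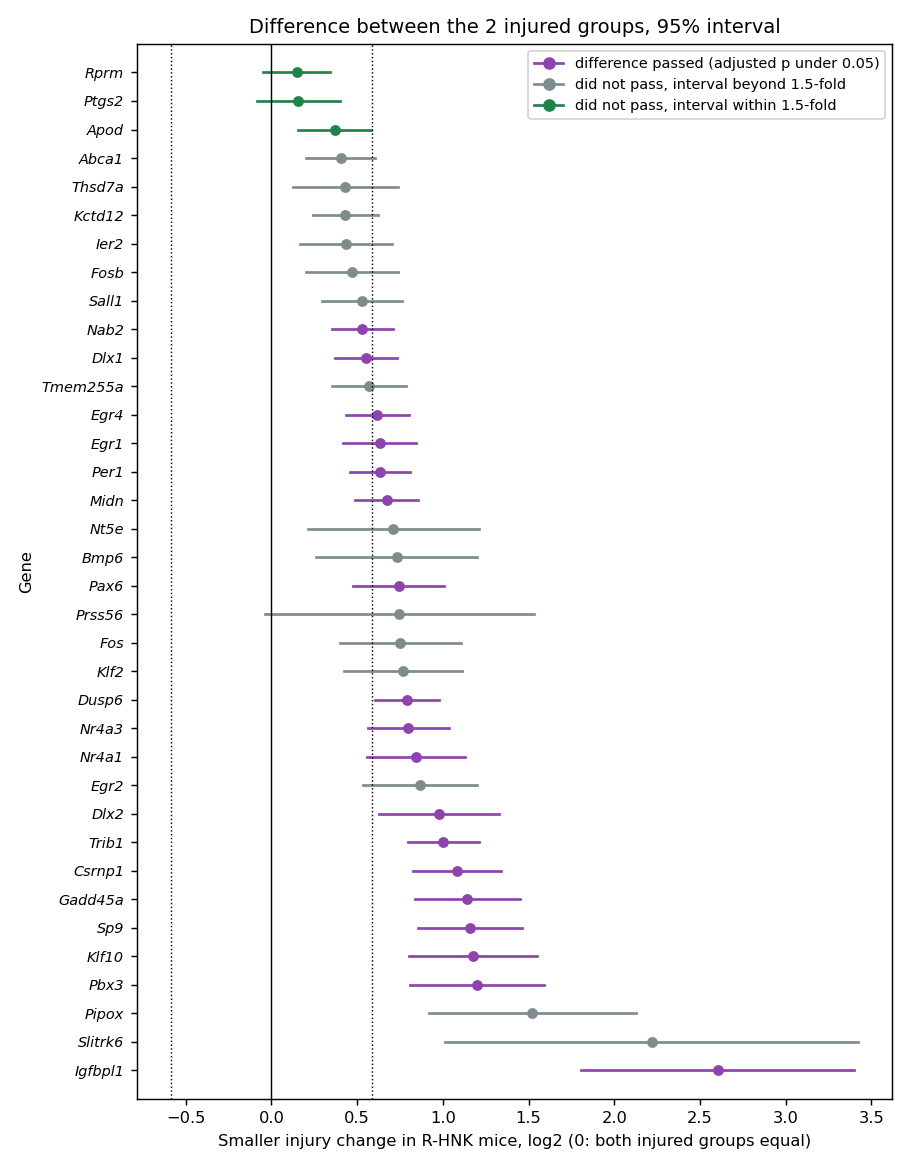
Difference between R-HNK and SNI-saline mice for the 36 protein-coding genes, drawn so that values above 0 mean a smaller change in R-HNK mice, with 95% intervals and dotted lines at 1.5-fold. The intervals of Rprm, Ptgs2 and Apod lie between the dotted lines, and 18 intervals belong to differences that passed.

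AMPA receptor genes, which the study names in its title, had no called member across all injured mice. None of 34 tested genes passed with edgeR (0% against 0.17% of all genes), and 4 higher and 4 lower had an unadjusted p under 0.05. DESeq2 and limma-voom with quality weights each passed 1 higher and 1 lower. Of all 21765 genes DESeq2 passed 357 and limma-voom 269, and 2521 had an unadjusted p under 0.05 with edgeR. The log2 fold changes of the pore subunits were -0.13 ± 0.08 for Gria1, -0.09 ± 0.06 for Gria2, 0.07 ± 0.07 for Gria3 and 0.08 ± 0.10 for Gria4, and that of the scaffold Dlg4 (PSD-95) was 0.00480 ± 0.06. The signs of Gria3, Gria4 and Dlg4 turned under other settings. Cacng5, an auxiliary subunit, had the smallest p of the list and all injured mice below all sham mice: 24.5, 23.97 and 21.6 CPM in sham, 10.5, 6.30 and 8.735 CPM under saline and 12.1, 19.9 and 12.9 CPM under R-HNK. It gave -1.05 ± 0.17 (adjusted p = 0.0503), and passed in 9 of the 21 other settings, among them the striatal covariate (-1.24, adjusted p = 0.0227). Without sham 1, 4 higher and 2 lower genes of the list passed, in a fit that passed 518 of 22540 genes. Nptx1, a pentraxin that gathers AMPA receptors, gave 0.39 ± 0.09 (adjusted p = 0.112).

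The other lists with 0 called genes by edgeR differed in how evenly their members leaned. Over all 21765 genes tested, 2521 had an unadjusted p under 0.05, 1087 higher and 1434 lower. DESeq2 passed 357 of them and limma-voom with quality weights 269. The share of all genes with a positive or a negative value was not taken. Interferon-stimulated genes were negative in 22 of 26 with near-equal medians in the injured groups (-0.21 under saline, -0.24 under R-HNK). Of these, 3 were lower at an unadjusted p under 0.05, DESeq2 and limma-voom passed 0, and the median went to -0.00465 without sham 2 and to -0.04 with the striatal covariate. Genes of meningeal and perivascular fibroblasts were negative in 21 of 21, with medians of -0.75 and -0.40 and 12 at an unadjusted p under 0.05. DESeq2 passed 4 of them and limma-voom 1, all lower. That summed list ran from 274 to 447 CPM in sham, 195 to 240 in SNI-saline and 240 to 282 in R-HNK mice. Igf2, a growth factor of the meninges, and Fmod, a collagen-binding proteoglycan, gave -0.70 ± 0.13 and -0.80 ± 0.15 (both adjusted p = 0.0639), and each injured mouse lay below each sham mouse in Fmod. Heat shock genes were positive in 35 of 38 (median 0.13; 10 unadjusted, all higher; DESeq2 passed 3 and limma-voom 1), and respiratory chain genes in 62 of 63 (median 0.09; 7 unadjusted, all higher; both other tools passed 0). The unadjusted counts of the interferon list (3 of 26) and the respiratory chain list (7 of 63) were near the share over all genes. Striatal markers had the lowest median, -1.35, with -1.92 under saline and -0.78 under R-HNK, and 0.02 without the 4 libraries high in them.

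**Figure D5:**
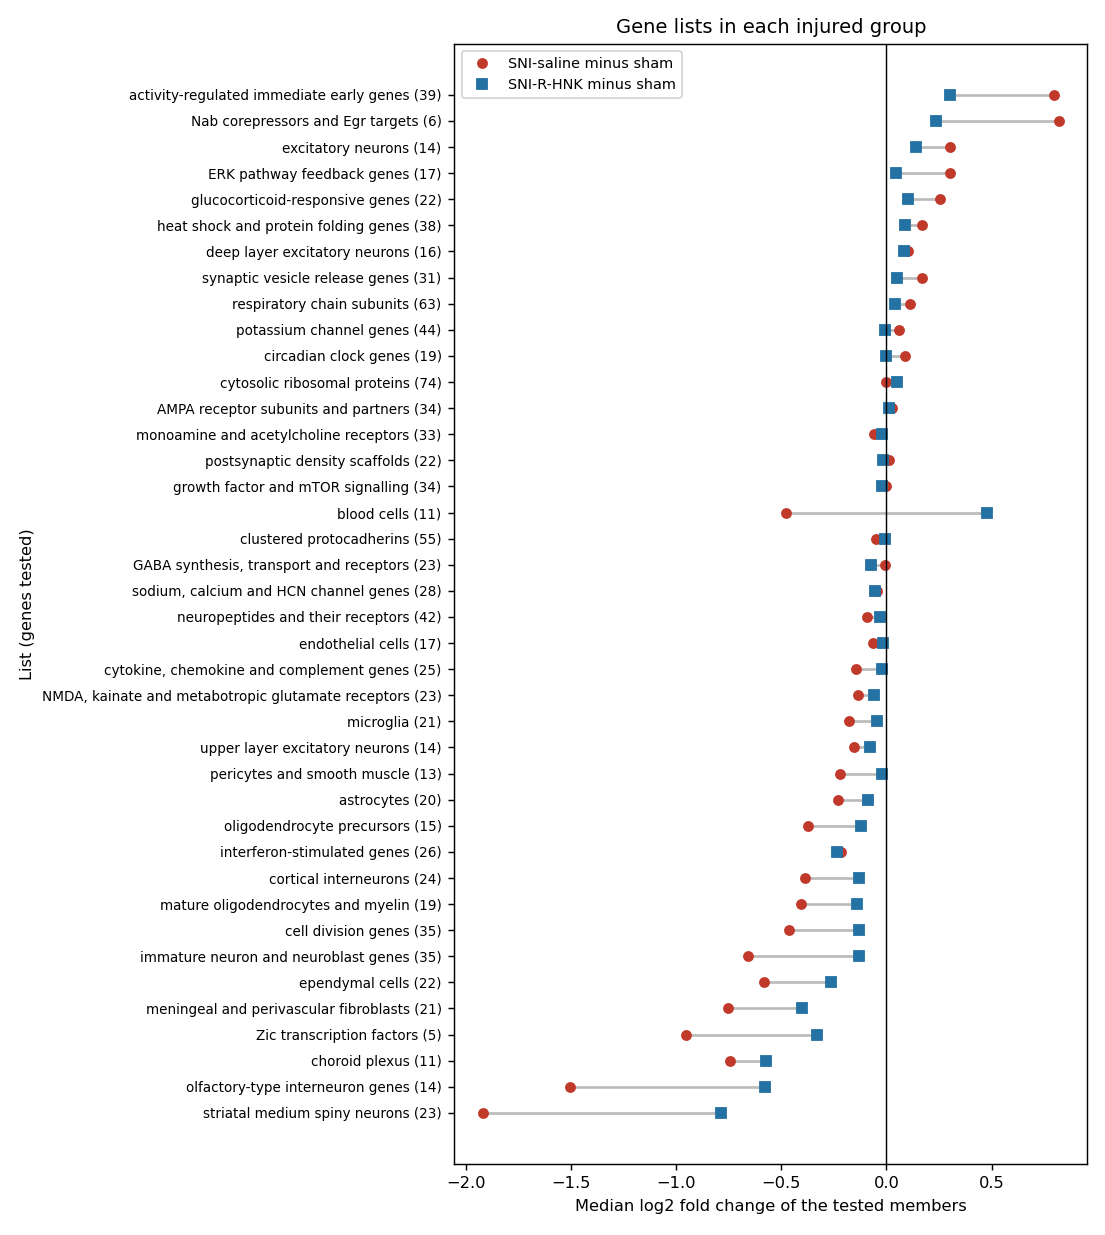
Median log2 fold change of the tested members of each of the 40 lists in SNI-saline (circles) and R-HNK mice (squares) against the same sham libraries; the number of genes tested is in brackets. Among the circles, immediate early genes and the Egr and Nab genes are farthest to the right and striatal markers and olfactory-type genes farthest to the left, and the circle lies farther from 0 than the square in these 4 lists.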

How the data were processed

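RNA of the prelimbic cortex of 9 mice was sequenced on an Illumina NovaSeq, per the labels. The submitters' processing notes name HISAT2 2.0.5, mm10 and featureCounts 1.5.0-p3, while the deposited table is named for StringTie. The deposited values are whole-number expected counts per gene, which the authors left unnormalized. The sources used here do not say whether strand was used. Of 55335 rows, 20334 were 0 throughout, 216 carried a repeated symbol and 27 a date in place of a symbol. Names were matched to GENCODE M21 (98.3% of tested genes).

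The counts were filtered by filterByExpr (21765 genes, 99.96% of all reads counted). TMM factors ran from 0.979 to 1.03. The fit used edgeR 4.0.16 under R 4.3.3 (robust quasi-likelihood, 1 mean per group, common biological coefficient of variation 0.203). The contrasts were the mean of both injured groups minus sham, and R-HNK minus SNI-saline. SE were worked back from the test statistic. An exact two-sided rank test of 6 mice against 3 could not go below p = 0.0238 for a single gene (84 splits). DESeq2 1.42.0, limma 3.58.1 (limma-voom), other scalings and filters, a replicate block, a striatal score, and fits without single libraries were alternatives. The same 6 mice as 1 group in DESeq2 and limma-voom were added after seeing the data. That limma-voom fit had no quality weights for the libraries, which the other limma-voom fit used. Replicates differed by more than sampling noise (chi-square per gene 15.0 to 45.2).

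Members and the 40 lists were chosen with earlier results of these data known. Genes were named by a rule: the largest and the most significant calls per direction, the largest and the narrowest differences between injured groups, up to 4 members of each list, and Gria1 to Gria4 and Dlg4. Thsd7a, Nab2, Midn and the remaining calls were named to account for all 37. On simulated counts with the same change in both injured groups, a 1.5-fold change was found in 61.2% of changed genes. A 2-fold change was found in 86.1% and a 4-fold change in 98.0%, and 7.72% of calls in those counts were false. In the 37 genes the R-HNK change was a median of 35.1% of the SNI-saline change, and recovery of such unequal changes was not tested. The share of false calls with some libraries high in striatal markers was not tested either.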

Additional observations from a re-analysis of the deposited data

Results flagged for a closer look

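In 18 of the 37 genes the 2 injured groups differed from each other (edgeR, adjusted p under 0.05 for R-HNK minus SNI-saline). The log2 differences of the higher genes were Trib1 -1.003, Egr4 -0.62, Dusp6 -0.79, Nr4a3 -0.80, Per1 -0.63, Nr4a1 -0.84, Gadd45a -1.14, Csrnp1 -1.08, Egr1 -0.63, Midn -0.67, Klf10 -1.18 and Nab2 -0.53. Those of the lower genes were Pbx3 1.20, Sp9 1.16, Dlx2 0.98, Pax6 0.74, Igfbpl1 2.60 and Dlx1 0.55. In each of these genes the R-HNK mean lay nearer to sham than the SNI-saline mean.

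1 of the 57 genes examined had a library far from the others among the 6 injured mice. In Scgn (secretagogin, of certain inhibitory neurons), R-HNK 2 measured 2.20 CPM and the other injured mice 0.187 to 0.635 CPM, a gap of 0.777 of the whole range. The cut for a set of 6 is 0.625, which chance alone passes in about 1 in 20 sets. Scgn is on the list of olfactory-type interneuron genes, whose score was 0.45 in R-HNK 2 and -0.83 to -0.12 in the other injured mice.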

How the results depend on the processing

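All 37 genes kept their direction under all 21 alternatives, which their choice on the same libraries largely fixes, and none passed under every one. The 20 higher, 17 lower and 18 differing genes became 42 and 47 without a filter, 154, 203 and 72 with DESeq2, 116, 153 and 36 with limma-voom, and 29, 10 and 7 with the 4 libraries high in striatal genes left out (1 sham and 1 R-HNK mouse, each taken to vary like the SNI-saline mice). With 1 group of 6 injured mice they were 0 and 0 (edgeR), 43 and 44 (DESeq2) and 0 and 0 (limma-voom, here without the quality weights used above). Leaving out 1 library gave 8 to 232 higher, 3 to 286 lower and 4 to 46 differing genes. The causes were not tested. With the replicate block they were 13, 2 and 10. The numbers do not pair the mice: same-numbered mice correlated by -0.167 to 0.234 (other pairs, median 0.0235), and 3 of 9 libraries correlated best with their own number. Small values turned sign: Dlg4 to -0.00199 with the filter on mean log2 CPM, Gria3 to -0.021, Gria4 to -0.11 and Dlg4 to -0.00600 with the striatal covariate, and Gria4 to -0.036 and Dlg4 to -0.066 without those 4 libraries. Without 1 library, Gria4 ran from -0.012 to 0.22 and Dlg4 from -0.017 to 0.044. Over the single genes, 803 values kept their side of the threshold, 301 no longer passed, 80 newly passed and 10 turned.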

Other observations

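Lists not described above held few or no called genes. Of all 21765 genes tested, DESeq2 passed 357 and limma-voom with quality weights 269, and 2521 had an unadjusted p under 0.05 with edgeR. Of 23 genes for GABA synthesis, transport and receptors (median -0.023, 8 positive and 15 negative) edgeR passed 0, with 1 higher and 7 lower at an unadjusted p under 0.05, while DESeq2 and limma-voom each passed 4, all lower. Slc6a11, a GABA transporter that astrocytes also carry, had all 6 injured mice (117.3 to 153.6 CPM) below all 3 sham mice (172.2 to 190.4 CPM), with -0.40 ± 0.08 (adjusted p = 0.0728). Grm4, a metabotropic glutamate receptor of nerve endings, showed the same pattern, 30.2 to 37.6 CPM against 42.6 to 52.3 CPM, with -0.51 under saline and -0.35 under R-HNK (difference 0.16, 95% interval -0.05 to 0.37), and did not pass (adjusted p = 0.0639). Among 24 cortical interneuron genes 1, Dlx1, was lower, 12 were lower and 2 higher at an unadjusted p under 0.05, and DESeq2 passed 10 and limma-voom 7, all lower. Excitatory neuron genes were positive in 14 of 14 (median 0.24, 0.07 without the 4 libraries high in striatal genes), and edgeR passed 0 of them, DESeq2 3 and limma-voom 4. Neurod6, a transcription factor of these neurons, gave 0.51 ± 0.09 (adjusted p = 0.0571).

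Cell division genes were negative in 28 of 35 (median -0.30, -0.03 without those 4 libraries), with 0 passing by edgeR, 8 lower and 1 higher at an unadjusted p under 0.05, and 1 lower by DESeq2 and by limma-voom. Blood cell genes differed in sign between the injured groups, with a median of -0.48 in SNI-saline and 0.48 in R-HNK mice, and edgeR, DESeq2 and limma-voom passed 0 of 11, with 0 at an unadjusted p under 0.05. Of 74 cytosolic ribosomal protein genes 0 passed with any of these 3 tools and 0 had an unadjusted p under 0.05.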
